A study of Mus musculus with 8 samples.

Results

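The small RNAs described here are those that the authors' table assigned to the mouse L1 subfamilies L1Md_A, L1Md_T and L1Md_Gf. Members were chosen by name alone, as every distinct sequence whose annotation began with L1Md_A, L1Md_T or L1Md_Gf, and each name occurred in 1 form only. There were 71447 such sequences among the 6246223 of the whole list (1.14%), of which 57568 were 24 to 33 nt long, the size of small RNAs bound by Piwi proteins (piRNAs). L1Md_T gave 31520 of these, L1Md_A 23646 and L1Md_Gf 2402. The list pooled testis libraries of 8 groups with 1 library each, from mice labelled heterozygous or homozygous for a Tdrd1 knockout at 18.5 days after conception, and heterozygous or homozygous for a Tdrd6 knockout at 18 days, 25 days and 6 weeks after birth. Strain, number of animals and the alleles themselves were not given in the labels. No sequence was tied to a library and no read number was given. The effect of either mutation, changes with age, RNA levels and the identity of the tissue were therefore not measured, and the depth was unknown. All values below are numbers or shares of distinct sequences. Intervals in parentheses are 95% Clopper-Pearson (exact binomial) intervals and cover only the counting error. With no replicates and with overlapping sequences that are not independent, no p-value was computed. Where subfamilies are set side by side, the statement is whether their intervals overlap.

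L1 elements are retrotransposons that copy themselves through an RNA. Their ORF1 encodes an RNA-binding protein and their ORF2 an endonuclease and reverse transcriptase. In the mouse genome the A, T and Gf subfamilies hold the recently inserted copies that can still move, and their promoters are arrays of repeated monomers. In male germ cells piRNAs silence them. A piRNA guides a Piwi protein to cut a complementary transcript opposite the bond between its bases 10 and 11, and the new end of the cut RNA becomes the start of another piRNA. In this reciprocal (ping-pong) cycle the partners lie on opposite strands, overlap by 10 nt at their 5' ends, and often carry U first or A at position 10. Tdrd1 and Tdrd6 encode Tudor-domain proteins of the germ cell granules in which Piwi proteins reside.

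The sequences that led each subfamily are shown here because they hold this arrangement in full. They were picked as the 5' ends (the first 20 bases) with most distinct sequences of 24 to 33 nt, each with the opposite-strand end of the same subfamily that overlaps it by 10 nt and has most distinct sequences. All are written 5' to 3' with T for U, and capitals mark the 10 bases that pair between partners. Of the sequences with that end, the member shown has the most frequent length up to 30 nt and, at that length, the most mapped positions.
L1Md_A, leading end: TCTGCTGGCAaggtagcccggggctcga
L1Md_A, its partner: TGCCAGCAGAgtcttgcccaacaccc
L1Md_A, the third end: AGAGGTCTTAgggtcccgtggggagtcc
L1Md_A, its partner: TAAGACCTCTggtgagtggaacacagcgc
L1Md_T, leading end: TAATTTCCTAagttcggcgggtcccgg
L1Md_T, its partner: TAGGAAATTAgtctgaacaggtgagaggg
L1Md_Gf, leading end: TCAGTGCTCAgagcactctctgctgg
L1Md_Gf, its partner: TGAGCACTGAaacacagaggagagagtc

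The leading L1Md_A end was carried by 172 distinct sequences, in all 10 lengths from 24 to 33 nt. The member shown mapped to 4882 positions, while 33 of the 172 sequences mapped to 1 position. The variants differed in the bases after the shared 20 as well as in length. The most frequent base was found in 92.4% of them at position 21 and in 73.2% of those long enough at position 27. The partner shown was the seventh end of the subfamily with 42 sequences, and in all 22 ends with 84 sequences paired with the leading end. It has T first and A at position 10, as does the leading end.

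In L1Md_T the leading end and its partner were also the first and the second of the subfamily, with 77 and 71 distinct sequences. Both begin with T and both have A at position 10. The members shown mapped to 3368 and 5822 positions. In L1Md_A the third, the fourth and the fifth end had 80, 74 and 72 sequences, and the fifth is the partner of the other two. The third and the fourth begin with A and have A at position 10, while the fifth begins with T and has T there.

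L1Md_Gf had no comparable ends. Its leading end was carried by 12 sequences in 7 lengths, and the member shown mapped to 3794 positions. The end had 6 partner ends with 1 sequence each, of which the one shown mapped to 3 positions. Only 2 L1Md_Gf ends (0.12%) had 10 or more sequences, against 161 of 13385 ends in L1Md_A (1.20%) and 237 of 17750 in L1Md_T (1.34%). In L1Md_A these ends held 12.9% of the sequences and in L1Md_T 11.1%. Such numbers can depend on list size, and L1Md_Gf had 2402 sequences of 24 to 33 nt against 23646 and 31520. Whether the lack of such ends is a trait of the subfamily was not tested. Most ends in every subfamily had 1 sequence, with 72.8% in L1Md_A, 71.2% in L1Md_T and 76.8% of 1674 ends in L1Md_Gf.

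The length profiles of the subfamilies nearly coincided. Mean length at 24 to 33 nt was 28.0 ± 1.94 nt (SD over 23646 sequences) in L1Md_A, 28.03 ± 1.98 nt in L1Md_T and 27.9 ± 1.95 nt in L1Md_Gf, and 27 nt was the most frequent length in each. Sequences of 26 to 30 nt made up 80.6%, 79.3% and 80.3%. A second, narrow maximum stood at 19 nt, with 1378 sequences in L1Md_A, 2032 in L1Md_T and 190 in L1Md_Gf, against 557, 830 and 59 at 20 nt.

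**Figure D1:**
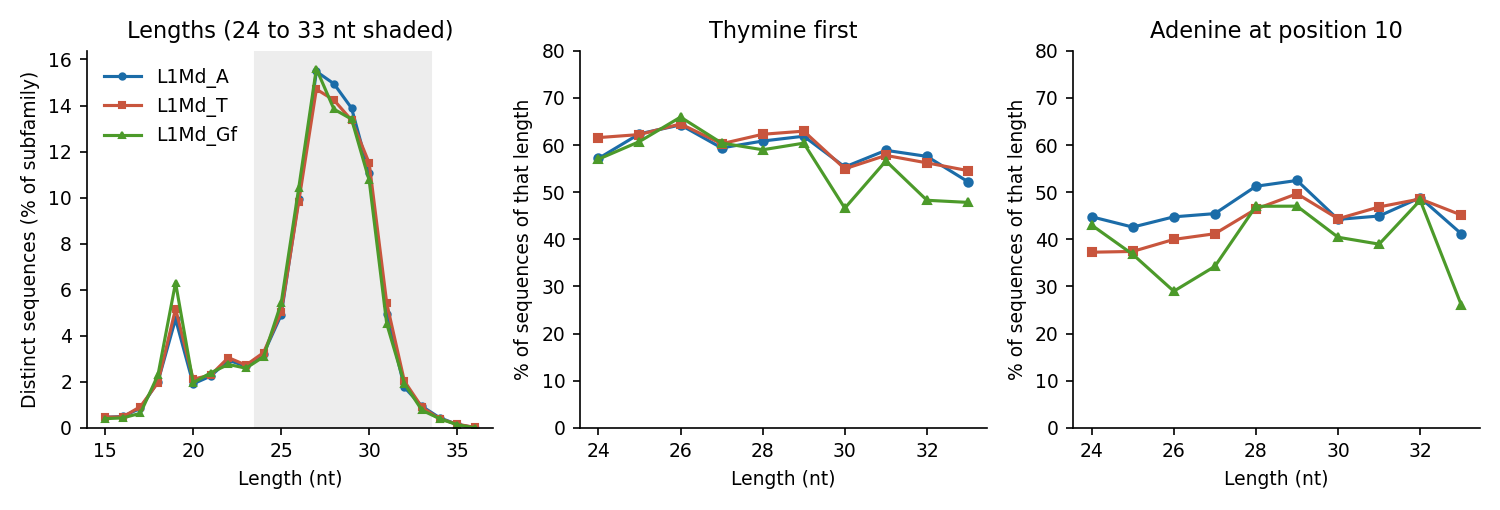
Left, share of all distinct sequences of each subfamily by length in nt, with 24 to 33 nt shaded. Centre and right, share of the sequences of each length with thymine first and with adenine at position 10. The left panel shows maxima at 27 nt and 19 nt in each subfamily, and the right panel shows higher shares at 28 and 29 nt than at 26 and 27 nt.

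T first and A at position 10 were both frequent in every subfamily, and the second differed between them. T (U in the RNA) opened 60.1% (59.4 to 60.7) of L1Md_A, 60.7% (60.1 to 61.2) of L1Md_T and 58.3% (56.3 to 60.3) of L1Md_Gf sequences, and these intervals overlapped. An A stood at position 10 in 47.3% (46.6 to 47.9) of L1Md_A, 44.0% (43.5 to 44.6) of L1Md_T and 39.8% (37.8 to 41.8) of L1Md_Gf sequences. None of these intervals overlapped. The neighbouring positions did not follow this order, since the mean share of A at positions 9 and 11 was 25.0%, 25.3% and 26.1%. The share at position 10 thus exceeded that of its neighbours by 22.2, 18.8 and 13.7 percentage points.

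A was also somewhat frequent at position 5, with 32.3% in L1Md_A, 32.8% in L1Md_T and 35.97% in L1Md_Gf. L1Md_A further had T at position 6 in 33.1% of sequences, against 29.2% in L1Md_T and 24.6% in L1Md_Gf. When each 5' end was counted once, the share of A at position 10 was 42.8% in L1Md_A, 40.1% in L1Md_T and 39.4% in L1Md_Gf. L1Md_T and L1Md_Gf then differed by less than the width of the L1Md_Gf interval given above.

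**Figure D2:**
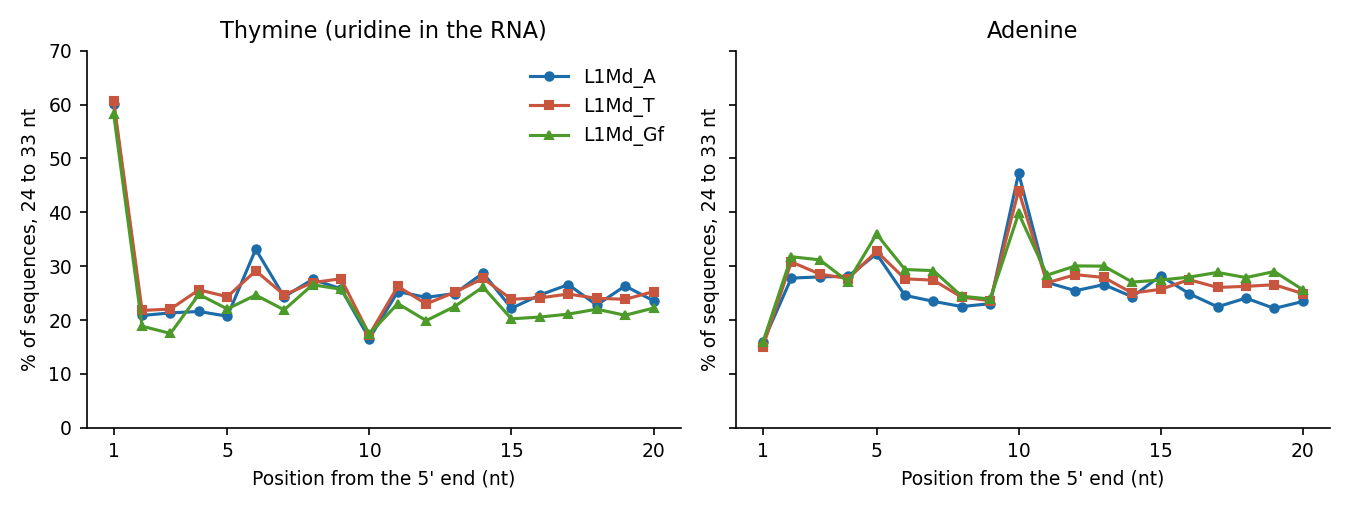
Share of thymine (left) and adenine (right) at positions 1 to 20 of sequences of 24 to 33 nt in each subfamily. Thymine stands out at position 1 and adenine at position 10, where L1Md_A lies above L1Md_T and L1Md_T above L1Md_Gf.

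Set beside other lists, the 3 subfamilies together had T first less often than the related L1Md_F names, at 60.3% (59.9 to 60.7) against 67.4% (67.0 to 67.7), and than the older L1_Mus names with 73.0% (72.5 to 73.4). The internal region of the IAPEz retrovirus had 61.2% (60.8 to 61.7). T first was most frequent among mRNA sequences, at 78.4% (78.3 to 78.5), so it was not particular to lists with frequent A at position 10. An A stood at position 10 in 45.2% (44.8 to 45.6) of A, T and Gf sequences together, 45.7% (45.2 to 46.1) of IAPEz, 44.0% (43.7 to 44.4) of L1Md_F, 37.6% (37.2 to 38.1) of L1_Mus and 25.8% (25.7 to 25.9) of mRNA sequences. L1Md_T and the L1Md_F names gave the same rounded share, 44.0%, and L1Md_Gf lay below both.

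Sequences with neither U first nor A at position 10 formed 18.8% of L1Md_A, 18.7% of L1Md_T and 21.6% of L1Md_Gf, and those with both 26.1%, 23.4% and 19.7%. A at position 10 was more frequent among sequences that did not start with T. The shares were 52.9% (51.9 to 53.9) against 43.5% (42.7 to 44.3) in L1Md_A, 52.5% (51.6 to 53.4) against 38.6% (37.9 to 39.2) in L1Md_T and 48.3% (45.2 to 51.4) against 33.7% (31.2 to 36.3) in L1Md_Gf. Among sequences without T first the intervals of L1Md_A and L1Md_T overlapped, while among sequences that begin with T they did not.

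Length differed slightly with these bases. In L1Md_T, sequences with T first and another base than A at position 10 measured 27.9 ± 1.97 nt (SD, 11750 sequences) with a mode of 27 nt. Those with the A but without T first measured 28.2 ± 1.96 nt (6511 sequences) with a mode of 28 nt, and those with both bases had a mode of 29 nt. The modes of the first 2 classes were the same, 27 and 28 nt, in L1Md_A and L1Md_Gf. Their means were 27.92 and 28.08 nt in L1Md_A and 27.75 and 28.20 nt in L1Md_Gf, so the differences were small beside the SD. Similar differences stood in other lists, with 27.85 and 28.15 nt in the L1Md_F names, 27.94 and 28.15 nt in IAPEz and 27.13 and 27.31 nt in mRNA sequences. By length, A at position 10 reached 51.3% at 28 nt and 52.5% at 29 nt in L1Md_A, against 44.8% at 26 nt and 44.2% at 30 nt. In L1Md_T it was 46.4% and 49.7% at 28 and 29 nt, against 39.97% and 44.4%. In L1Md_Gf it rose from 28.98% of 314 sequences at 26 nt to 47.0% of 417 at 28 nt. Within 24 to 33 nt, T first was lowest at 33 nt in L1Md_A with 52.2% and in L1Md_T with 54.6%, and at 30 nt in L1Md_Gf with 46.6%.

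The subfamilies consisted mainly of sequences that fit many copies in the genome. The median number of mapped positions was 41 in L1Md_A, 106 in L1Md_T and 45 in L1Md_Gf. Sequences that mapped to 1 position made up 13.5% (13.1 to 13.96), 13.0% (12.6 to 13.3) and 16.2% (14.7 to 17.7), against 23.04% (22.7 to 23.4) in the L1Md_F names and 34.7% in the L1_Mus names. Those that mapped to over 1000 positions made up 33.4%, 34.1% and 35.3%. IAPEz had 13.6% (13.3 to 13.8) at 1 position, 23.7% at over 1000 positions and a median of 253. A sequence with many positions can fit copies of other subfamilies too, so its name is the authors' final choice among them.

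The sequence of up to 30 nt with most positions in L1Md_A and in L1Md_T was picked after its value had been seen and shows how widely a member can be shared. Each is written in lower case, with no part marked.
L1Md_A, 36431 positions: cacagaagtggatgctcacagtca
L1Md_T, 41783 positions: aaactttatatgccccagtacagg

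T first became less frequent as the number of positions rose. In L1Md_A it was found in 70.5% (68.9 to 72.1) of sequences with 1 position, 64.0% with 2 to 10, 63.9% with 11 to 100, 59.0% with over 100 and up to 1000, and 51.2% (50.1 to 52.3) with more. The shares in L1Md_T were 71.4%, 67.3%, 65.3%, 58.1% and 51.7%. L1Md_Gf spanned the widest range, from 76.1% (71.5 to 80.2) of 389 sequences to 41.1% (37.8 to 44.5) of 849. At over 1000 positions its interval lay below those of the other subfamilies, and the L1Md_F names had 56.3% (55.5 to 57.1).

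A at position 10 did not follow the same course, and the order of the subfamilies changed along it. Among sequences with 2 to 10 positions it was 53.7% (52.4 to 55.1) in L1Md_A against 44.7% (43.4 to 46.0) in L1Md_T. Among those with over 1000 positions it was 40.5% (39.5 to 41.6) against 43.8% (42.8 to 44.7), so L1Md_T was then the higher. With 1 position the shares were 49.3% (47.6 to 51.1) in L1Md_A, 42.5% (40.99 to 44.05) in L1Md_T and 37.8% (33.0 to 42.8) in L1Md_Gf. With over 100 and up to 1000 positions the intervals of L1Md_A, at 44.7% (42.7 to 46.8), and L1Md_T, at 41.6% (40.2 to 42.9), overlapped.

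**Figure D3:**
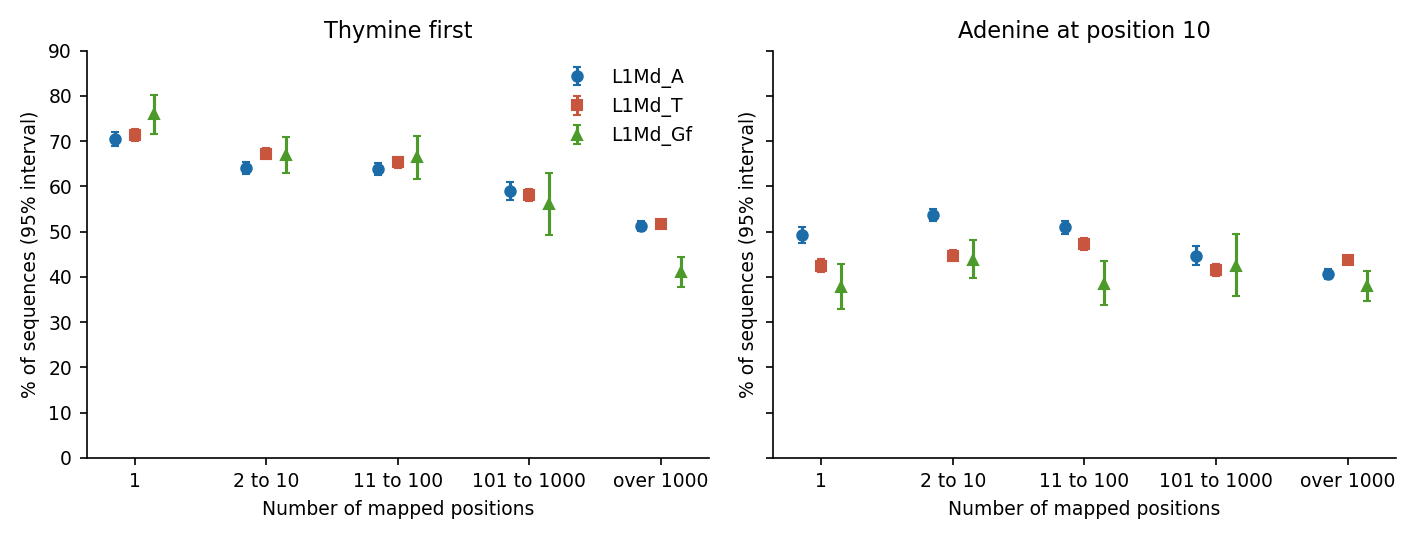
Share of sequences of 24 to 33 nt with thymine first (left) and adenine at position 10 (right), by the number of mapped positions. Points are subfamilies and bars are 95% exact intervals for counting error. Thymine first falls from 70.5% to 51.2% in L1Md_A and from 76.1% to 41.1% in L1Md_Gf, while adenine at position 10 is higher in L1Md_A than in L1Md_T at 1 position and lower at over 1000.

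Base composition separated the subfamilies as well. The coding strand of L1 elements is known to be rich in A, but the table gave no strand. Over positions 2 to 8 and 12 to 20, sequences with more A than T formed 44.5% of L1Md_A, 48.2% of L1Md_T and 56.2% of L1Md_Gf, and those with more T than A 45.8%, 43.1% and 35.2%. In L1Md_A, position 10 held A in 54.9% (54.0 to 55.9) of the T-rich and 39.9% (38.9 to 40.8) of the A-rich sequences. T was first in 58.2% (57.2 to 59.1) and 62.2% (61.3 to 63.2) of them. The contrast at position 10 was smaller in L1Md_T, with 45.2% (44.4 to 46.0) and 43.5% (42.8 to 44.3), and in the L1Md_F names it had the opposite direction, with 42.05% and 46.6%. In L1Md_Gf the T-rich sequences had both bases more often, with 63.5% (60.1 to 66.7) against 56.3% (53.6 to 59.0) for T first and 44.2% (40.8 to 47.6) against 37.3% (34.7 to 39.98) for A at position 10. Positions 9 and 11 differed too, with a mean A share of 20.2% in T-rich and 29.9% in A-rich L1Md_T sequences. Over these neighbours, the excess of A at position 10 was larger in the T-rich sequences of each subfamily. It was 33.1 against 11.1 percentage points in L1Md_A, 25.0 against 13.7 in L1Md_T and 24.5 against 7.41 in L1Md_Gf. The L1Md_F names then had the same direction, with 22.1 against 15.9 points, while L1_Mus had 11.6 against 15.2.

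Partners on the opposite strand were in excess at an overlap of 10 nt in each subfamily. A 5' end was counted when the reverse complement of 10 of its bases opened an end of the list, and overlaps from 11 to 20 nt gave the background. The end itself was not left out, so one whose first 10 bases are self-complementary counted as its own partner at 10 nt. How many ends did so was not counted. In L1Md_A 45.6% (44.7 to 46.4) of ends had a partner at 10 nt, against a mean of 30.5% (SD 1.91 over 10 overlaps) and a highest value of 33.1%. In L1Md_T the values were 46.7% (46.0 to 47.4), 32.8% (SD 1.07) and 34.6%. In L1Md_Gf they were 21.6% (19.7 to 23.7), 10.5% (SD 0.81) and 11.6%. The other lists had an excess within themselves as well. Their values were 47.6%, 31.7% and 34.3% in the L1Md_F names, 35.9%, 22.6% and 24.4% in L1_Mus, and 61.7%, 48.4% and 51.0% in IAPEz. A smaller list offers fewer partners at every overlap, so levels are compared within a subfamily and not across.

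Among sequences with 1 position the background was lower, and the share at 10 nt, divided by the background mean, rose from 1.497 to 3.58 in L1Md_A, from 1.43 to 2.66 in L1Md_T and from 2.05 to 3.47 in L1Md_Gf. The difference in percentage points rose only in L1Md_A, from 15.1 to 17.01, and was smaller in L1Md_T (13.9 and 11.6) and L1Md_Gf (11.1 and 5.23). In L1Md_A 23.6% (22.03 to 25.2) of 2754 ends had a partner at 10 nt, against a mean of 6.59% and at most 9.44% at the other overlaps. In L1Md_T it was 18.6% (17.3 to 19.9) of 3541 ends against 7.004% and 8.47%, and in L1Md_Gf 7.34% (4.85 to 10.6) of 354 ends against 2.12% and 3.39%. An end whose 10-nt partner begins with T must itself have A at position 10. With A required at the pairing position of every overlap, the share was 59.2% at 10 nt against a mean of 43.7% in L1Md_A, 60.8% against 48.1% in L1Md_T and 29.6% against 16.8% in L1Md_Gf. For sequences with 1 position the corresponding shares were 38.7% against 12.3%, 30.4% against 13.2% and 12.9% against 4.31%.

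**Figure D4:**
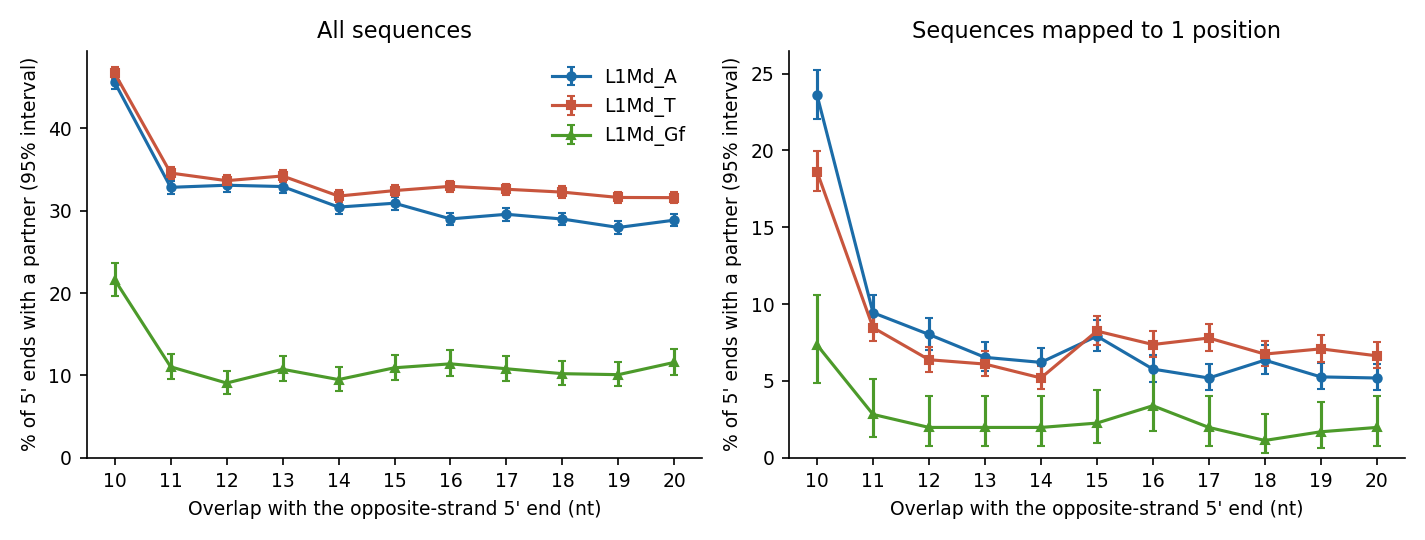
Share of 5' ends with an opposite-strand partner in the same subfamily, by overlap in nt, for all sequences (left) and those mapped to 1 position (right). Bars are 95% exact intervals for counting error. The value at 10 nt lies above those at 11 to 20 nt in each subfamily and in both panels.

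Partners also joined different subfamilies. Of L1Md_A ends, 39.1% (38.3 to 39.9) had a partner at 10 nt among L1Md_T ends, against 22.9% on average at 11 to 20 nt, and of L1Md_T ends 27.4% (26.8 to 28.1) had it among L1Md_A ends, against 17.1%. L1Md_Gf ends found partners among L1Md_T ends in 49.8% of cases against 36.8%, and among L1Md_A ends in 22.4% against 12.3%. The older and related lists gave an excess as well. Among L1Md_F ends, L1Md_A ends had partners in 42.7% of cases against 27.2%, L1Md_T ends in 42.8% against 29.1% and L1Md_Gf ends in 43.01% against 29.04%. Among L1_Mus ends the shares were 22.7% against 12.8%, 22.8% against 14.1% and 20.3% against 12.001%. Among IAPEz ends, an unrelated element, L1Md_A ends had 3.22% against 2.43%, L1Md_T ends 3.10% against 2.38% and L1Md_Gf ends 2.51% against 2.59%. The highest other overlap there gave 2.80%, 2.66% and 3.23%. Divided by the mean, the IAPEz shares were 1.33, 1.30 and 0.97, against 1.497, 1.43 and 2.05 within each subfamily. With 1 position the IAPEz shares were 1.20% against 0.559%, 0.904% against 0.565% and 0.565% against 0.621%. These came from 33, 32 and 2 ends. For sequences with 1 position, L1Md_A ends had partners among L1Md_T ends in 17.2% (15.8 to 18.7) of cases against 2.87%. The excess over the other overlaps was 14.3 percentage points there and 17.01 within L1Md_A, while over all map numbers it was 16.2 with L1Md_T and 15.1 within L1Md_A. In L1Md_Gf, sequences with 1 position had an excess of 11.8 points with L1Md_T and 5.23 within the subfamily. Differences in points can depend on list size, here 3541 L1Md_T, 2754 L1Md_A and 354 L1Md_Gf ends with 1 position. Divided by the mean, the order was reversed. The L1Md_A shares with 1 position gave 5.99 with L1Md_T and 3.58 within L1Md_A. The L1Md_Gf shares gave 2.47 with L1Md_T and 3.47 within the subfamily. Which list a subfamily pairs with more was not tested.

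Identical ends were shared too, mainly between L1Md_T, the largest of the 3 lists, and the others. L1Md_A and L1Md_T had 2025 ends in common, which were 15.1% of the L1Md_A and 11.4% of the L1Md_T ends. L1Md_Gf shared 451 ends with L1Md_T, 26.9% of its own and 2.54% of the L1Md_T ends, and 122 with L1Md_A, 7.29% of its own and 0.911% of the L1Md_A ends. All 3 subfamilies held 88 ends. Ends found in no other of the 3 were 84.6% in L1Md_A, 86.5% in L1Md_T and 71.03% in L1Md_Gf. Each distinct sequence had 1 name, so an end was shared only where a different sequence with that end had another name. Most ends had 1 sequence, so these shares do not measure how specific an end is to a subfamily. Between 17.1% and 18.9% of each subfamily's ends were also found under L1Md_F names, and 0 under IAPEz. Ends that differed from another end of the same subfamily by 1 substitution formed 55.5% in L1Md_A, 54.4% in L1Md_T and 25.3% in L1Md_Gf. With the 3 subfamilies pooled the share was 64.0%. A smaller list offers fewer such neighbours, so these shares are not compared across subfamilies.

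Ends with more distinct sequences had partners more often. In L1Md_A, 39.3% (38.3 to 40.3) of ends with 1 sequence, 57.7% (55.9 to 59.5) of those with 2 to 4 and 81.3% (78.3 to 84.1) of those with 5 or more had a partner at 10 nt. The means at the other overlaps were 26.6%, 37.96% and 52.6%, so the difference grew from 12.7 to 19.7 and 28.7 percentage points. In L1Md_T it grew from 10.8 to 19.6 and 28.8, and in L1Md_Gf from 9.60 to 14.2 and 28.7 points, the last over 47 ends. The share at 10 nt divided by the mean changed little in L1Md_A, with 1.48, 1.52 and 1.55. There the share at the other overlaps rose nearly in step with that at 10 nt. The same ratio was 1.37, 1.4997 and 1.57 in L1Md_T, and 1.95, 2.14 and 4.0 in L1Md_Gf. Of the first 100 ends, 98 in L1Md_A, 97 in L1Md_T and 37 in L1Md_Gf had a partner, against means of 69.7, 72.3 and 13.8 at other overlaps. The last of these ends had 12, 13 and 3 sequences, numbers that several ends shared. Ends with equal numbers were ranked by their partners at 10 nt, which favours the counts at 10 nt over the means. The number of distinct sequences per end is not an RNA level.

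The sequences of 19 nt were outside the piRNA size range and had T first less often than longer ones. The shares were 34.4% in L1Md_A, 33.3% in L1Md_T and 33.7% in L1Md_Gf, against 39.4%, 38.7% and 30.4% at 18 nt and 46.7%, 45.9% and 55.9% at 20 nt. Their 3' ends paired most often with base 11 of longer members. The last 10 bases of 55.2% (52.5 to 57.8) of the L1Md_A sequences were complementary to bases 11 to 20 of a member of 24 to 33 nt, so that the 3' end lay opposite base 11. Over the 14 other places from base 1 to base 15 the mean was 39.2% (SD 2.46) and the highest value 43.4%. In L1Md_T the values were 56.5% (54.3 to 58.7), 40.9% (SD 1.76) and 44.5%, and in L1Md_Gf 32.6% (26.02 to 39.8), 19.2% (SD 1.69) and 22.1%.

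The lengths on either side gave smaller differences at this place. With the 3 subfamilies pooled, the value at base 11 exceeded the mean of the other places by 15.04 percentage points at 19 nt. It exceeded it by 0.981 points at 18 nt, 2.80 at 20 nt, 0.816 at 21 nt, 1.17 at 22 nt and 2.39 at 23 nt, and at 27 nt it differed by -0.015 points. In the L1Md_F names the 19-nt excess was 13.1 points. The excess was also present for 19-nt sequences that were not the start of a member, where the shares were 49.5% against 33.1% in L1Md_A, 49.6% against 35.2% in L1Md_T and 34.97% against 18.3% in L1Md_Gf. The 47 L1Md_Gf sequences that were such a start had 25.5% at base 11 and up to 34.04% elsewhere.

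**Figure D5:**
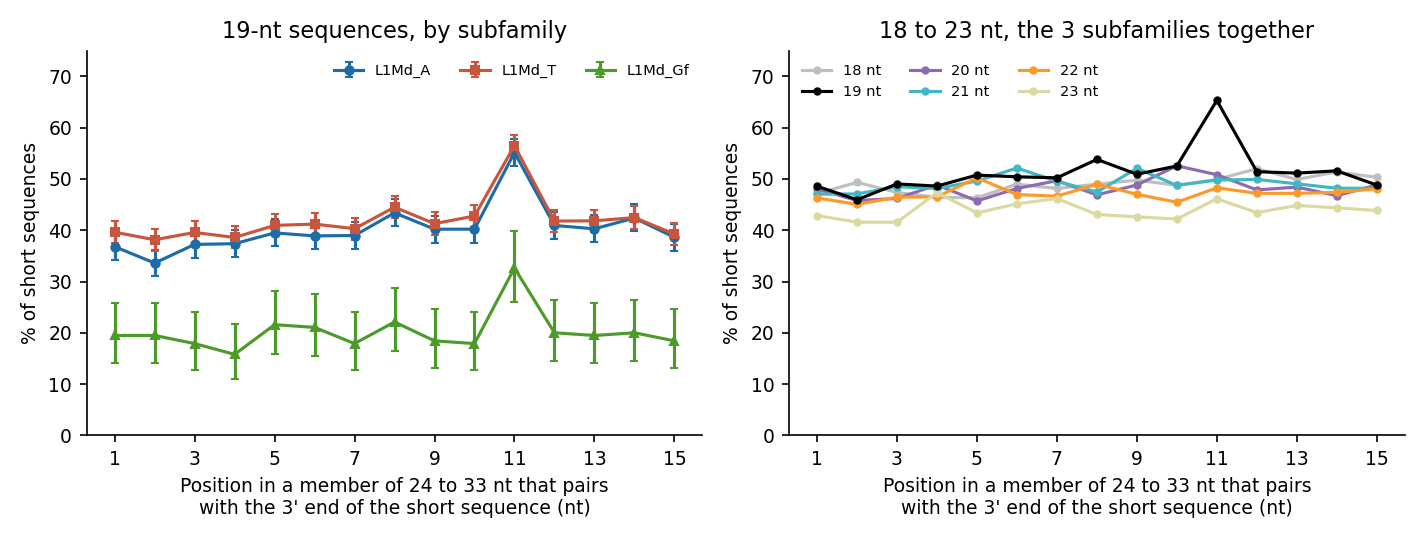
Share of short sequences whose last 10 bases pair with a member of 24 to 33 nt of the same list, by the base of the member that lies opposite their 3' end. Left, 19-nt sequences of each subfamily with 95% exact intervals for counting error, which peak at base 11. Right, lengths of 18 to 23 nt with the 3 subfamilies together, where only 19 nt shows a peak at base 11 (65.3%).

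The whole 19 nt could be matched for 377 of 1378 such sequences in L1Md_A (27.4%), 604 of 2032 in L1Md_T (29.7%) and 21 of 190 in L1Md_Gf (11.1%), as the exact complement of bases 11 to 29 of a member. The following 19-nt sequences are shown because they pair in this way with a member of 29 nt that has an end of the leading L1Md_A or L1Md_T pair, and were picked after values were seen as the ones with most positions for each of these ends. The 3' end of each lies next to the 5' end of that member's 10-nt partner.
L1Md_A, opposite TCTGCTGGCA: ctcgagccccgggctacct
L1Md_A, opposite TGCCAGCAGA: tgcgggtgttgggcaagac
L1Md_T, opposite TAATTTCCTA: gtccgagacccgccgaact
L1Md_T, opposite TAGGAAATTA: ccctctcacctgttcagac

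They mapped to 7067, 6852, 1158 and 6363 positions in that order. In the leading L1Md_A and L1Md_T pairs, each of the partners had such a 19-nt sequence opposite it. In the other L1Md_A pair only the end that begins with TAAGACCTCT had it, and in the L1Md_Gf pair neither end had it.

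The base that follows the 3' end could be read where exactly 1 base was found next in longer members. This was the case for 6191 L1Md_A, 8649 L1Md_T and 619 L1Md_Gf sequences, which were 26.2%, 27.4% and 25.8% of each subfamily. It was T in 24.3%, 26.1% and 17.6%, against 26.05%, 26.3% and 23.6% over all bases from position 25 on. A followed in 29.4%, 30.2% and 38.9%, against 26.3%, 26.3% and 29.7%. These sequences are those with a longer form in the list and do not stand for all members.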

How the data were processed

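Small RNA of 19 to 33 nt from mouse testes was ligated to linkers and amplified by PCR, per the labels. The authors deposited 1 table with 3 columns (sequence, map number, final annotation), of which 0 were tied to a library. The header gives no text for the map number, which was read from its name as the number of mapped positions (1 to 1810562 over the table). Aligner, genome build, repeat annotation and read minimum are not given in the sources used here. Planned comparisons of genotypes and ages could not be made, nor could positions along an element, since no genome was used here. Members and lists were chosen with earlier results of these data known. Named subfamilies needed at least 100 sequences of 24 to 33 nt, and the printed ends followed the rule in the text. The third L1Md_A end, the most mapped members, the A-rich and T-rich classes and the values for 18 to 23 nt were added after seeing the data. Python 3.11.15, pandas 2.3.3, numpy 2.4.6 and scipy 1.17.1 were used, and partner counts were tested on simulated data. Alternatives were other length windows, map numbers and backgrounds, and each 5' end counted once. The most mapped L1Md_Gf member is not reported here.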

Additional observations from a re-analysis of the deposited data

Results flagged for a closer look

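Sequences of L1Md_A, L1Md_T and L1Md_Gf were also found outside the labelled range of 19 to 33 nt. There were 2724 sequences of 15 to 18 nt, of which 34.1% (32.4 to 35.96) had T first and 44.5% were identical to the start of a member of 24 to 33 nt. There were 415 sequences of 34 to 36 nt, of which 46.5% (41.6 to 51.4) had T first and 49.4% (44.5 to 54.3) had A at position 10. Outliers and differences between groups could not be sought without values per library.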

How the results depend on the processing

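Of 81 recomputed values, 46 stayed within the counting interval (for mean length 1 SD, for numbers 1.5 times) and 35 moved out of it. None changed sign. Values are given in the order L1Md_A, L1Md_T, L1Md_Gf. At 19 to 33 nt, T first was 58.2%, 58.4% and 56.2%, A at position 10 was 45.8% and 42.4% (L1Md_A, L1Md_T), 1 position was 12.4%, 11.9% and 14.7%, and the excess of partners at 10 nt was 13.97 and 12.4 points. With 1 position only, T first was 70.5%, 71.4% and 76.1%, A at position 10 was 49.3%, 42.5% and 37.8%, and the excess was 17.01, 11.6 and 5.23 points. With more than 1 position, T first was 58.4%, 59.1% and 54.8%, and the L1Md_A excess was 14.3 points. With each 5' end counted once, T first was 57.2%, 57.2% and 55.9%, A at position 10 was 42.8%, 40.1% and 39.4%, so that L1Md_T and L1Md_Gf were close, and 1 position was 18.1%, 17.2% and 20.3%. The L1Md_A excess was 13.5 points over overlaps of 11 to 15 nt and 16.1 points with partners from the 3 subfamilies together, where L1Md_Gf had 13.1 points. With A required at the pairing position, chosen after seeing the data, L1Md_T had 12.7 points. The cause of these shifts was not tested. No value moved out of its interval at 25 to 32 nt, nor did the 19-nt excess under either of its alternatives, also chosen after seeing the data. No paired analysis was possible because no value belongs to a library. Without read numbers or depth, a sequence read once counts as much as an abundant one.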
